A study of Populus x canadensis with 3 samples.

Results

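The miR477 and miR530 families are 2 microRNA (miRNA) families of poplar that were followed here in roots given para-hydroxybenzoic acid (pHBA), a phenolic compound of plant origin that builds up in soil. Their members were found by name, as every entry of the deposited table named miR477 or miR530 in any species, with each distinct sequence counted once. The families had been chosen by a reading of their levels and fold changes in these same libraries, so those values are a description and carry no test. The search gave 12 of the 472 sequences in the table, 8 in the miR477 family and 4 in the miR530 family, from 14 of its 673 entries. The roots were of Populus × euramericana "Neva", a hybrid poplar grown from rooted branch cuttings in water culture for 60 days and then exposed for 3 days. The library PHBA0_R came from roots without pHBA, PHBA2_R from roots at 2 mML-1 and PHBA4_R from roots at 4 mML-1, a unit that is presumably millimolar. RNA of 1 treatment was pooled before sequencing, so each dose is 1 library. Differences therefore cannot be set against replicates, p-values are left out, and the intervals cover counting error only. The table holds no mRNA marker by which the labelled root tissue could be checked. In whole roots, fewer cells with an miRNA and less of it per cell cannot be told apart.

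Plant miRNAs are cut from a folded hairpin precursor as a short duplex of a 5p and a 3p strand. As a rule 1 strand is kept in an Argonaute protein, where it guides the cutting or silencing of mRNAs that match it along most of its length, and the other strand is degraded. miR477 was first described in poplar and is known from several other woody plants, and GRAS transcription factors, which act in root patterning, meristems and gibberellin signalling, are reported as its targets in poplar. miR530 is found across flowering plants and is best known from rice, where it represses a gene for a PLUS3-domain protein and affects grain yield. In Arabidopsis, AGO1 favours guide strands that begin with U and AGO2 those that begin with A.

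The sequences of the miR477 family are shown first, since the strands differ in where they start and in how they behaved across the doses. Letters are as in the deposited table, with T for U, and capitals mark the seed, bases 2 to 8. In the names, ptc stands for Populus trichocarpa, mdm for apple and ppe for peach. By the usual convention of such tables, which the files do not define, a capital MIR with p5 or p3 is a hairpin strand without a registered mature form, and suffixes such as R-1 or 1ss13GA give ends and substitutions that differ from the registered miRNA.
ptc-miR477a-5p: aTCTCCCTcagaggcttccaa
ptc-miR477d-5p_R-1: aTCTCCCTcaaaggcttcctc
ptc-MIR477c-p5: aCTCCCTCaaaggtttccag
mdm-miR477b_R-2_2ss5TC20GC: aCTCCCCCtcaagggcttcc
ptc-miR477a-3p_1ss13GA: gGATGCCTttggaggagattg
ptc-miR477c_R-1: gGAAACCTtttgtgggggttt
ptc-MIR477b-p3: aATGAGAAtgttggatgc
ppe-MIR477b-p3_2ss1TC18AG: cTGGGGGCtcttttgggg

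The first 4 of these sequences resemble each other and are 5p strands or look like them. They share the run CCCTCA, which 7 of the 472 sequences contain (1.48%). Its carriers outside the family were ptc-miR473a-5p_R+1, ptc-miR1446a_R+1 and mes-miR1446_R+1_1ss20TA, so the run is not particular to miR477. The strands of miR477a and miR477d have the same seed, TCTCCCT, and differ at 3 of 21 bases, A11G, T20A and C21A with the base of miR477d first and positions counted from its 5′ end. ptc-MIR477c-p5 lines up with ptc-miR477a-5p when it starts 1 base further in, with 16 of 20 bases alike, so its seed is shifted by 1 base. mdm-miR477b_R-2_2ss5TC20GC starts 1 base before ptc-miR477a-5p in the best alignment, matches it at 15 of 19 bases and is the richest in G and C of these 4, at 65% against 50 to 52.4%. All 4 begin with A, as do 84 of the 472 sequences (17.8%), while 44.7% begin with T. By reads in PHBA0_R, sequences that begin with A held 2.30% and those that begin with T 91.4%.

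The 3p strands have no seed in common. When the 5p and 3p strands were folded together with RNAduplex, those of miR477a formed 17 base pairs and left 2 unpaired bases at each 3′ end, and those of miR477c did the same, which is the shape of a diced miRNA duplex. The 18-nt ptc-MIR477b-p3 ends in the 6 letters, GGATGC, that ptc-miR477a-3p_1ss13GA starts with. Only these 6 letters aligned with this closest member of the family. The sequence ptc-miR172a of another family matched ptc-MIR477b-p3 at 13 positions with 1 mismatch and 2 gaps, an alignment score of 8 against 6 for that member. Other members scored about as high outside their own family, with 7 for ptc-miR477c_R-1 and 9 for ptc-MIR530a-p3. No likeness to miR172 is drawn from this match. Membership of ptc-MIR477b-p3 therefore rests on its name. The 18-nt peach-named strand matched its closest member of the family at 10 of 14 aligned positions, a score of 5. It scored 7 against lus-miR159c_R+1 of another family, so its membership also rests on its name. No sequence outside the families has the seed of a member.

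The miR530 sequences are shown because the main strand and its rarer variants differ by 1 or 2 bases. The name htu stands for Helianthus tuberosus, and the same sequence is also entered under a Medicago truncatula (mtr) name.
ptc-miR530a_R+1: tGCATTTGcacctgcacctta
htu-miR530_R+1: tGCATTTGcacctgcaccttt
ptc-miR530b_R+1: tGCATTTGcacctgcatcttt
ptc-MIR530a-p3: tGCAGGTGcaggtgcaggtga
The first 3 share the seed GCATTTG and begin with T. Counted from the 5′ end of ptc-miR530a_R+1, the htu-named sequence differs from it by A21T and ptc-miR530b_R+1 by C17T and A21T. The opposite strand, ptc-MIR530a-p3, repeats the letters GCAGGT and formed 17 base pairs with ptc-miR530a_R+1, but in that fold each 3′ end fell 1 base short of the other strand's 5′ end.

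In roots without pHBA the miR477 family was an abundant one, and a 5p strand led it. Levels are normalized reads, which are reads multiplied by 1 constant per library with no length term, and each read is 1 small RNA of 18 to 25 nt. ptc-miR477a-5p stood at 3609 normalized reads in PHBA0_R, the 20th highest of the 472 sequences. ptc-MIR477c-p5 followed at 1720 and ptc-miR477a-3p_1ss13GA at 1187. The family sum came to 7133 in PHBA0_R, 6703 in PHBA2_R and 9045 in PHBA4_R, which placed miR477 at 13th, 12th and 11th among 102 numbered families. It made up 0.998% of all listed reads in PHBA0_R (Wilson 95% interval 0.981 to 1.01), 0.955% in PHBA2_R (0.929 to 0.981) and 1.58% in PHBA4_R (1.54 to 1.62). The level of the whole family thus stood close together without pHBA and at the lower dose and higher at the higher dose, where the family sum was 1.27-fold that of PHBA0_R (1.23 to 1.31) and 1.35-fold that of PHBA2_R (1.30 to 1.40).

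**Figure D1:**
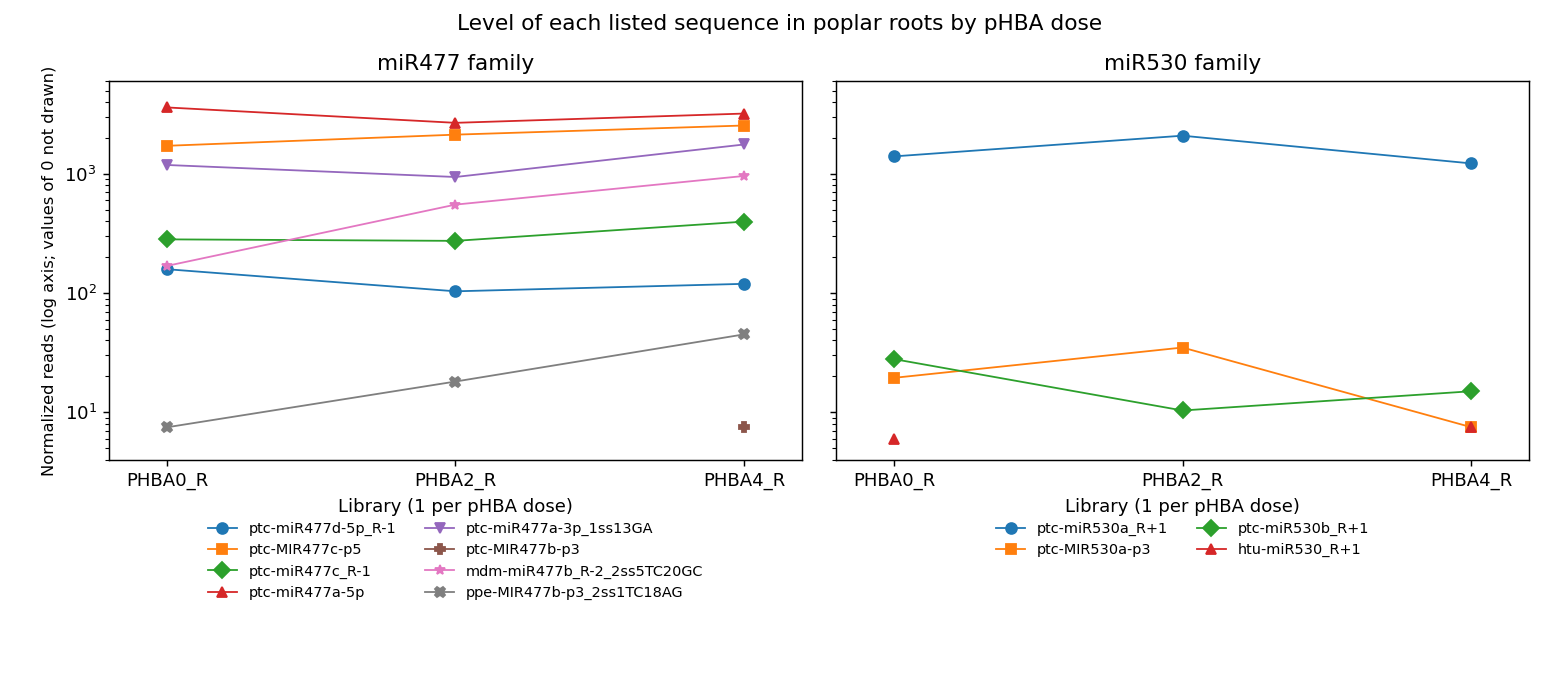
Normalized reads (log axis) of every miR477 and miR530 sequence in the libraries at 0, 2 and 4 mML-1 pHBA, with lines that join the values of 1 sequence and values of 0 left out. The apple-named miR477 strand goes from 169 to 552 and 960 normalized reads while ptc-miR477a-5p stays between 2680 and 3609, and ptc-miR530a_R+1 is highest in PHBA2_R at 2091. In PHBA4_R, ptc-MIR530a-p3 and the htu-named miR530 sequence have the same value, 7.50.

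Of the 7 miR477 members above 0 in every library, the apple-named and the peach-named strand differed most from PHBA0_R, by ratio, at both doses. mdm-miR477b_R-2_2ss5TC20GC stood at 169 normalized reads in PHBA0_R (339 reads), 552 in PHBA2_R (427 reads) and 960 in PHBA4_R (640 reads). It was 3.27-fold higher in PHBA2_R (2.83 to 3.78) and 5.68-fold higher in PHBA4_R (4.97 to 6.50) than in PHBA0_R, and 1.74-fold higher in PHBA4_R than in PHBA2_R (1.54 to 1.97). Among the 289 sequences of the table that averaged 10 or more normalized reads, its log2 fold change was the 15th highest at the lower dose and the 30th highest at the higher dose. Its share of miR477 reads, which does not depend on how libraries were scaled, was 2.37% (2.13 to 2.63), 8.24% (7.52 to 9.02) and 10.6% (9.86 to 11.4). For each read of this strand there were 21.4 reads of ptc-miR477a-5p in PHBA0_R, 4.85 in PHBA2_R and 3.34 in PHBA4_R.

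The peach-named strand of 18 nt went the same way at a low level. ppe-MIR477b-p3_2ss1TC18AG stood at 7.48, 18.1 and 45.0 normalized reads, from 15, 14 and 30 reads. The ratio to PHBA0_R was 2.42 in PHBA2_R (1.08 to 5.38) and 6.02 in PHBA4_R (3.14 to 12.0). Sequences of 18 and 19 nt as a class held 0.329%, 0.670% and 3.60% of reads in the same order. Of the 29 with a mean of at least 10, 26 were at least 2-fold higher in PHBA4_R than in PHBA0_R and 0 lower. In PHBA2_R 13 were higher and 5 lower. Of all 289 sequences with that mean, 23.9% were higher and 21.1% lower in PHBA4_R, and 16.3% higher and 9.69% lower in PHBA2_R. The mean runs over all 3 libraries, so a sequence could reach it through PHBA4_R alone. A list of annotations doubted as RNA fragments (miR894, miR5139, miR5368, miR6300 and miR6478) held 0.676%, 2.08% and 3.97% of reads in PHBA0_R, PHBA2_R and PHBA4_R. The read shares of the short class and of this list moved with the apple-named and the peach-named strand. Their part in the differences of these strands was not tested.

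The main poplar strands differed less. ptc-miR477a-5p stood at 3609, 2680 and 3206 normalized reads, 1.35-fold lower in PHBA2_R than in PHBA0_R (1.28 to 1.41). In PHBA4_R it was 1.13-fold lower than in PHBA0_R (1.07 to 1.18) as deposited, and higher when all libraries were given equal totals, at 0.15 on the log2 scale. ptc-miR477d-5p_R-1, with the same seed, stood at 159, 103 and 119 and was 1.53-fold lower in PHBA2_R (1.20 to 1.98) and 1.33-fold lower in PHBA4_R (1.03 to 1.71) than in PHBA0_R. These strands kept nearly the same proportion to each other, with 22.8 reads of miR477a for each of miR477d in PHBA0_R (20.3 to 25.5), 25.9 in PHBA2_R (20.7 to 32.8) and 26.8 in PHBA4_R (21.4 to 33.8).

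The strand with the shifted seed stood apart from them. ptc-MIR477c-p5 was at 1720, 2133 and 2545 normalized reads, 1.24-fold higher in PHBA2_R (1.17 to 1.32) and 1.48-fold higher in PHBA4_R (1.40 to 1.57) than in PHBA0_R. Reads of ptc-miR477a-5p were 2.10 times those of ptc-MIR477c-p5 in PHBA0_R (2.01 to 2.19), 1.26 times in PHBA2_R (1.18 to 1.34) and 1.26 times in PHBA4_R (1.18 to 1.34). The proportion of the miR477a strand to the miR477c strand was therefore lower at both doses than without pHBA, beyond counting error and whatever the scaling. As a share of miR477 reads, ptc-miR477a-5p held 50.6%, 40.0% and 35.4%, and ptc-MIR477c-p5 held 24.1%, 31.8% and 28.1%. ptc-miR477a-5p has 2 entries with the same value, and if its reads had been divided between them its share would be 67.2%, 57.1% and 52.3%.

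**Figure D2:**
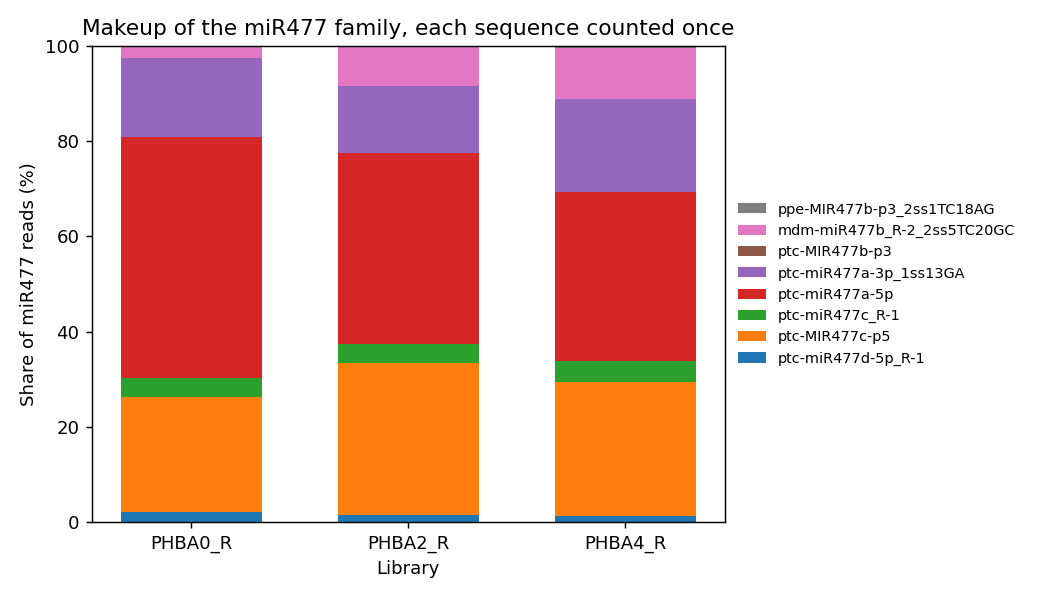
Share of miR477 reads (%) taken by each of the 8 sequences in each library, stacked to 100% with each sequence counted once. The share of ptc-miR477a-5p goes from 50.6% in PHBA0_R to 35.4% in PHBA4_R, and that of the apple-named strand from 2.37% to 10.6%.

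Strand use was compared within hairpins. In miR477a the 3p strand stood at 1187, 941 and 1764 normalized reads, 1.26-fold lower in PHBA2_R (1.16 to 1.37) and 1.49-fold higher in PHBA4_R (1.38 to 1.59) than in PHBA0_R. The step from PHBA2_R to PHBA4_R was 1.87-fold (1.71 to 2.06). The 3p strand held 24.8% of the reads on both strands in PHBA0_R (23.9 to 25.6), 26.0% in PHBA2_R (24.4 to 27.6) and 35.5% in PHBA4_R (33.9 to 37.1). At the lower dose both strands of miR477a were lower together, and at the higher dose the 3p strand alone was above its level without pHBA as deposited. With both entries of the 5p strand counted the 3p shares would be 14.1%, 14.9% and 21.6%, in the same order.

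In hairpin miR477c the share of the 3p strand at the higher dose was close to that without pHBA. Its 3p strand, ptc-miR477c_R-1, stood at 282, 274 and 397 normalized reads, a ratio of 0.972 in PHBA2_R (0.826 to 1.14) and 1.41 in PHBA4_R (1.21 to 1.63) to PHBA0_R. It held 14.1% of the reads on both strands in PHBA0_R (13.1 to 15.2), 11.4% in PHBA2_R (10.02 to 12.9) and 13.5% in PHBA4_R (12.1 to 15.1). The interval of PHBA4_R overlaps both others, while those of PHBA0_R and PHBA2_R do not overlap. The difference between the 2 hairpins was not tested, since there are no replicates. In the family as a whole the 4 strands that are or resemble 5p strands held 79.3%, 81.6% and 75.5% of reads.

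**Figure D3:**
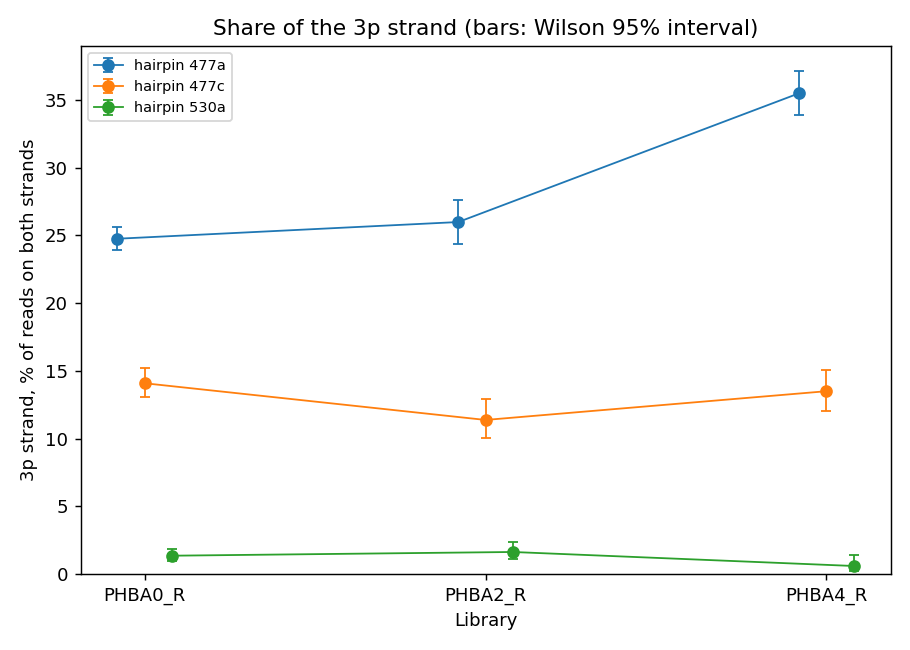
Reads on the 3p strand as a percentage of the reads on both strands of hairpins miR477a, miR477c and miR530a in each library, with Wilson 95% intervals. The value for miR477a is 24.8% and 26.0% in the first 2 libraries and 35.5% in PHBA4_R, that for miR477c lies between 11.4% and 14.1%, and that for miR530a is at or below 1.64%.

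The remaining member, ptc-MIR477b-p3, was listed at 0 in PHBA0_R and PHBA2_R and had 5 reads in PHBA4_R, 7.50 normalized reads. A count of 0 allows up to 1.50 normalized reads in PHBA0_R and 3.88 in PHBA2_R, if the table has no higher minimum. At these counts no difference is drawn.

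In the miR530 family 1 strand carried nearly all reads and was highest at the lower dose. ptc-miR530a_R+1 stood at 1402 normalized reads in PHBA0_R (2812 reads), 2091 in PHBA2_R (1617 reads) and 1224 in PHBA4_R (816 reads). It was 1.49-fold higher in PHBA2_R than in PHBA0_R (1.40 to 1.59) and 1.71-fold lower in PHBA4_R than in PHBA2_R (1.57 to 1.86). In PHBA4_R it was 1.15-fold lower than in PHBA0_R (1.06 to 1.24) as deposited, whereas with equal totals it was higher, at 0.13 on the log2 scale, so the order of these libraries depends on the scaling. The family sum was 1455, 2136 and 1254, ranked 26th, 23rd and 31st of 102 families. ptc-miR530a_R+1 held 96.3%, 97.9% and 97.6% of it.

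The rarer miR530 strands rest on few reads. ptc-miR530b_R+1 had 56, 8 and 10 reads, or 27.9, 10.3 and 15.0 normalized reads, and was 2.70-fold lower in PHBA2_R than in PHBA0_R (1.28 to 6.56). It was thus lower in the library where ptc-miR530a_R+1, which shares its seed, was highest. For each read of 530b there were 50.2 reads of miR530a in PHBA0_R (38.6 to 66.6), 202 in PHBA2_R (102 to 469) and 81.6 in PHBA4_R (44.1 to 171). The rule that divided reads between sequences 1 or 2 bases apart, not given in the sources used here, may affect these 3, and their values are uncertain.

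The opposite strand of miR530a was scarce in every library. ptc-MIR530a-p3 had 39, 27 and 5 reads, or 19.4, 34.9 and 7.50 normalized reads. It was higher in PHBA2_R than in PHBA0_R by 1.80-fold (1.06 to 3.01) and lower in PHBA4_R than in PHBA2_R by 4.65-fold (1.77 to 15.5), the order that its partner strand also had as deposited. It made up 1.37% of the reads of both strands in PHBA0_R (1.00 to 1.86), 1.64% in PHBA2_R (1.13 to 2.38) and 0.609% in PHBA4_R (0.260 to 1.42), and all 3 intervals overlap. The htu-named sequence was listed at 12, 0 and 5 reads, too few to compare.

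The size of the differences was then read against the whole table. A difference was called when log2 of the ratio, with 1 normalized read added to both values, was at least 1 in size. Of all 289 sequences with a mean of at least 10, 26.0% were called for PHBA2_R against PHBA0_R, 45.0% for PHBA4_R against PHBA0_R and 33.6% for PHBA4_R against PHBA2_R. Of the 12 members 10 reached that mean, and 3, 3 and 2 of them were called, so the shares of 30.0%, 30.0% and 20.0% lie near or below the background. In the miR477 family the called members were the apple-named and the peach-named strand, both higher at each dose than without pHBA, and the peach-named strand was also called between the doses. None of its 5 poplar-named members with that mean was called in any of the 3 comparisons as deposited, while with equal totals ptc-miR477a-3p_1ss13GA was called for PHBA4_R against PHBA2_R at a log2 value of 1.20, as was the apple-named strand at 1.09. With 5 reads added in place of 1 the peach-named strand was not called at the lower dose, at 0.89. Higher calls made up 16.3%, 23.9% and 17.3% of all 289 sequences in the 3 comparisons, and lower calls 9.69%, 21.1% and 16.3%. In the miR530 family ptc-miR530b_R+1 was called lower in PHBA2_R than in PHBA0_R, and ptc-MIR530a-p3 was called lower in PHBA4_R than in either other library. The call of ptc-MIR530a-p3 against PHBA0_R was lost with equal totals, at -0.98, and with 5 reads added, at -0.97.

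**Figure D4:**
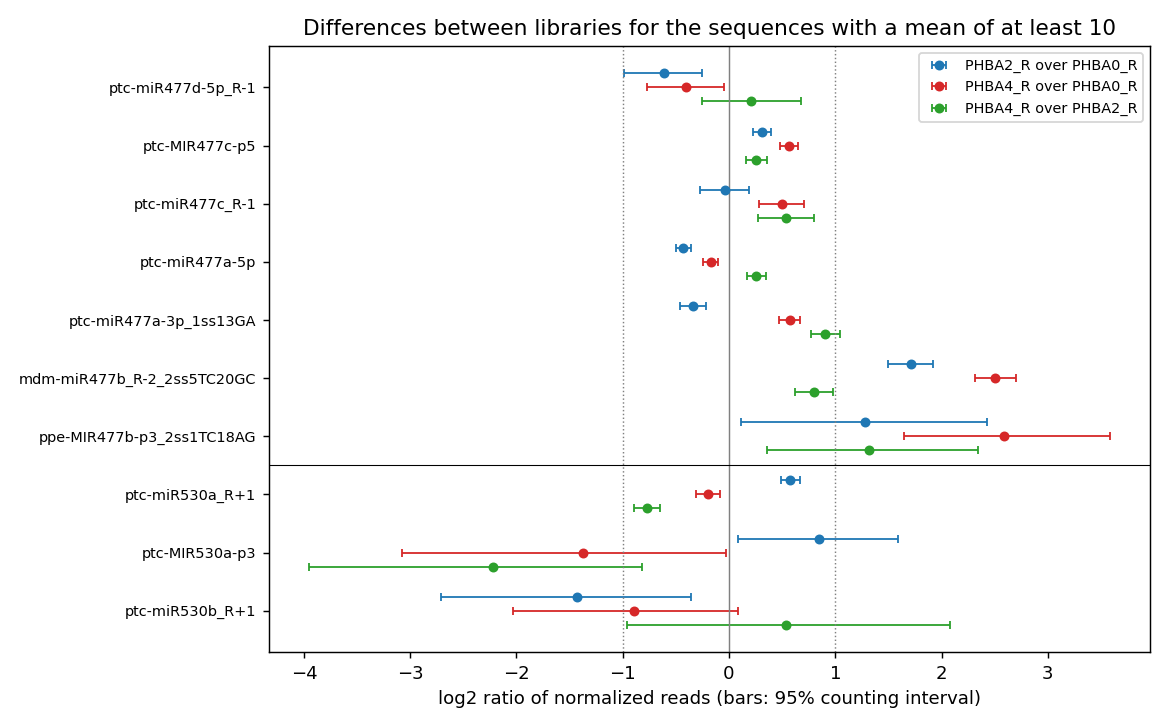
Log2 ratio of normalized reads between libraries for the 10 members with a mean of at least 10, without added reads and with 95% counting intervals, where dotted lines mark a 2-fold difference. The apple-named strand lies at 1.71 and 2.51 against PHBA0_R, while ptc-miR477a-5p lies at -0.43 and -0.17 and ptc-miR530a_R+1 at 0.58 and -0.20.

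The median log2 fold change of the 7 miR477 members was -0.04 for PHBA2_R against PHBA0_R, 0.57 for PHBA4_R against PHBA0_R and 0.53 for PHBA4_R against PHBA2_R, beside -0.03, 0.01 and 0.03 over all 289 sequences. The comparisons share libraries. For the 3 miR530 members the median was 0.58, -0.85 and -0.77. The -0.85 was the value of ptc-miR530b_R+1, from 10 reads against 56, with a ratio interval of 0.244 to 1.06. In that comparison ptc-miR530a_R+1, which held nearly all miR530 reads, was at -0.20 as deposited and at 0.13 with equal totals. The miR171 family also acts on GRAS transcription factors and was looked at beside miR477. Of its 16 sequences 9 had a mean of at least 10, and 0 were called higher and 2 lower for PHBA2_R against PHBA0_R, 0 and 4 for PHBA4_R against PHBA0_R, and 1 and 2 for PHBA4_R against PHBA2_R. Its summed value was 5049, 3353 and 4388 normalized reads, and its median log2 fold change was -0.58, -0.35 and 0.41. As deposited, the miR477 sum was highest in PHBA4_R and the miR171 sum in PHBA0_R. By share of listed reads miR171 was instead highest in PHBA4_R, at 0.706%, 0.478% and 0.768%.

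Sequences of other families with the most similar pattern were found from the log2 fold changes of both doses against PHBA0_R, as the smallest sum of absolute differences. Over these 3 libraries the closest to ptc-miR477a-5p were ptc-miR167e (sum 0.08), ptc-miR1447 (0.08) and mtr-miR159a_1ss21AT (0.22). Closest to ptc-miR530a_R+1 were ptc-miR482c-3p (0.25), ptc-MIR156i-p3 (0.31) and ptc-miR171h-5p (0.41). ptc-miR482c-3p stood at 12288, 16730 and 9858 normalized reads, so like ptc-miR530a_R+1 it was highest in PHBA2_R. With 3 libraries such likeness is a description of these values alone.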

How the data were processed

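Small RNA was sequenced from poplar roots at 3 pHBA doses. Total RNA was extracted with Trizol and RNA of 1 treatment was mixed in equal parts, per the labels' protocols, and bcl2fastq 1.8.4 made the read files, per the submitters' processing notes. No aligner, counting tool, miRNA release or genome build is named in the sources used here. The authors deposited 1 table with an expected count per entry and library, which need not be whole, and a normalized signal, which is that count times 0.498, 1.29 or 1.50. Listed reads came to 1434442, 542913 and 380800 over distinct sequences, and the width of each interval follows the reads behind that value. Counts were rounded to whole reads for intervals only.

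Ratios are of normalized reads, with exact conditional binomial (Clopper-Pearson) 95% intervals. Wilson 95% intervals were used for shares. PCR copies could not be told apart, so intervals cover counting error only. A floor of 3 counts was used for values of 0. Calls used a pseudocount of 1, a mean of at least 10 and a log2 fold change of at least 1. Every member was accounted for, with full values for those with a mean of at least 10, and 3 nearest sequences were named per leading strand. The members, lists and rules were chosen with earlier results of these data known. Alternatives were equal totals, median-of-ratios factors, a pseudocount of 5, other minimum means, every entry counted and sums over fewer members. The interval code was tested on simulated data. Sequences were aligned with offsets of up to 3 bases, or with gaps by Biopython 1.88 (match 1, mismatch -1, gap -2), and folded with RNAduplex 2.7.2. SciPy 1.17.1 and pandas 2.3.3 were used under Python 3.11.15.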

Additional observations from a re-analysis of the deposited data

How the results depend on the processing

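Each dose is 1 pooled library, so no left-out replicate could be tried. No paired analysis was possible because each group has 1 library. Values are log2 fold changes. Equal totals put the miR477 sum at 0.67 for PHBA4_R against PHBA0_R and 0.73 against PHBA2_R (0.34 and 0.43 as deposited), and the miR530 sum at 0.11 and -0.47 (-0.21 and -0.77), so the former turned. They also turned ptc-miR477a-5p, to 0.15, and ptc-miR530a_R+1, to 0.13, for PHBA4_R against PHBA0_R, and made 4 members called rather than 2 between the doses. Across all sequences they moved the median of PHBA4_R against PHBA0_R from 0.01 to 0.33 and the calls from 69 higher and 61 lower to 83 and 45, and between the doses from 50 and 47 to 68 and 32. Median-of-ratios factors changed no direction or call of a member. Without its most abundant sequence the miR477 sum was 0.19, 0.73 and 0.54 for PHBA2_R against PHBA0_R, PHBA4_R against PHBA0_R and PHBA4_R against PHBA2_R, the first of which turned from -0.09. In the same order the miR530 sum without ptc-miR530a_R+1 was -0.24 (counting interval -0.83 to 0.33), -0.83 (-1.60 to -0.13) and -0.59 (-1.46 to 0.24), from few reads. The first of these was 0.55 with all members, but its interval and that of the third include 0. With every entry counted the miR477 sum was -0.20 and 0.19 at the lower and higher dose against PHBA0_R. With poplar-named members only, an alternative chosen after seeing the data, it was -0.18 and 0.21. At a mean of at least 100, 1, 1 and 0 members were called instead of 3, 3 and 2, and without a minimum 4 were called between the doses, some of them listed at 0 in PHBA2_R. A pseudocount of 5 left 2 members called in each comparison. Depth limits ptc-miR530b_R+1, ptc-MIR530a-p3 and the members of 18 nt, which have at most 56 reads in a library.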

Other observations

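The sequence outside the families that was nearest to several miR477 strands carried the name miR473. ptc-miR473a-5p_R+1, shown with its seed in capitals as aCTCTCCCtcaaggcttccaa, matched ptc-miR477a-5p at 20 positions with 0 mismatches and 2 gaps. The nearest miR477 member to ptc-miR477a-5p, ptc-miR477d-5p_R-1, matched it at 18 positions with 3 mismatches and 0 gaps. By alignment score that was slightly less close, at 15 against 16. The same miR473 strand matched the apple-named mdm-miR477b_R-2_2ss5TC20GC at 18 positions with 1 mismatch and 1 gap. That was closer than the nearest miR477 member (17 matches, 2 mismatches and 1 gap). The 3p strand of miR477a also lay nearer to a miR473 strand than to its own family. ptc-miR473a-3p matched ptc-miR477a-3p_1ss13GA at 17 of 21 positions without gaps, while the closest miR477 member, ptc-miR477c_R-1, matched it at 14 of 21. Genome positions were not analysed here, so whether reads of these strands come from the same precursors is not known.

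ptc-miR473a-5p_R+1 stood at 3460, 3579 and 4782 normalized reads in PHBA0_R, PHBA2_R and PHBA4_R, a ratio of 1.03 at the lower dose (counting interval 0.989 to 1.08) and 1.38 at the higher dose (1.32 to 1.44). In the same order of libraries ptc-miR473a-3p stood at 234, 349 and 571 normalized reads. Both miR473 strands were looked at after their values were seen.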
